A study of Homo sapiens with 12 samples.

Results

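The CD44 locus was described in 2 colorectal adenocarcinoma cell lines from their lists of ChIP-seq regions. The members were all regions of 10 lists that overlapped chromosome 11 from 35110000 to 35304000 (hg19), a window of 194 kb that holds CD44 on the plus strand at 35160417 to 35253949. There were 33 such regions of 262931 in all, 10 in SW620 and 23 in SW480. SW620 is labelled Dukes' type C and SW480 Dukes' type B. Both are established lines, were grown in DMEM with serum and antibiotics, and received no treatment. Each line had 1 library for each of 4 histone modifications (H3K4me3, H3K4me2, H3K27ac, H3K36me3) and for the transcription factor FOXA2, so no difference between the lines has a replicate check and no p-value is given. Each list of a line was called against an input library of that line. Marker genes of the labelled cell type were not checked here.

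CD44 encodes a cell surface glycoprotein that binds hyaluronan, the main unbranched sugar polymer of the extracellular matrix. Its transcript is spliced into many forms that differ in the stem of the extracellular part. In the intestine CD44 is known as a target of Wnt signalling in crypt cells and as a marker used to isolate tumour-initiating cells of colorectal cancer. Of the marks measured, H3K4me3 is placed at promoters, H3K4me2 at promoters and enhancers, and H3K27ac at active promoters and enhancers. H3K36me3 is laid down by the methyltransferase SETD2, which travels with elongating RNA polymerase II, and covers the bodies of transcribed genes. FOXA2 is a forkhead pioneer factor of foregut endoderm and liver.

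The lines shared the promoter mark at CD44 and differed in acetylation and in the gene-body mark. SW620 had no H3K36me3 region in the window, whereas SW480 had 15, which covered 40.5 kb. SW620 had no H3K27ac region, whereas SW480 had 4, which covered 8.81 kb. H3K4me3 was called once in either line, at the CD44 start, over 1.83 kb in SW620 and 3.57 kb in SW480. H3K4me2 had 5 regions with 7.59 kb in SW620 and 3 regions with 7.15 kb in SW480. FOXA2 had 4 peaks in SW620 and none in SW480.

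These counts were set beside all windows of the same length, laid end to end over 23 chromosomes so that the CD44 window was one of them. A window was counted for an antibody where either line had a region of it. H3K36me3 in SW480 and none in SW620, as at CD44, was found in 9.24% of 6007 windows, and the opposite in 7.09%. For H3K27ac these shares were 13.0% of 8383 windows and 8.78%. A FOXA2 peak in SW620 and none in SW480 was found in 51.8% of 8632 windows, so the direction at CD44 was that of most windows with a peak.

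Within the window, 7 of the 10 SW620 regions had no overlap of 1 bp or more with a region of the same antibody in SW480, and 20 of the 23 SW480 regions had none in SW620. Over the whole lists of the 5 antibodies, 32.3% of 131503 SW620 regions and 31.2% of 131428 SW480 regions had none in the other line. These shares depend on the antibody. For FOXA2, which gave 4 of the 7 SW620 regions, the share was 98.1% of the SW620 list, and for H3K4me2, which gave the other 3, it was 30.2%. For H3K36me3, which gave 15 of the 20 SW480 regions, all of them pieces of 1 gene body, it was 34.3% of the SW480 list, and for H3K27ac, which gave 4, it was 32.0%. The shared regions were H3K4me3 and H3K4me2 at the start and an H3K4me2 region past the end of the gene. Summed mark by mark over the 4 histone modifications, 5.10 kb of the 64.3 kb marked in either line was marked in both, or 7.93%. Over the whole lists this share was 52.1%, and over the 5377 windows with a region of each mark in either line its median was 53.7% (quartiles 42.4 and 63.3). The low share at CD44 mostly restates the marks with no region in SW620. Of the 64.3 kb, H3K36me3 gave 40.5 kb and H3K27ac 8.81 kb. For H3K4me3 alone the share was 51.2% at CD44 and 67.3% over the whole lists. For H3K4me2 alone it was 28.5% and 52.7%.

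**Figure D1:**
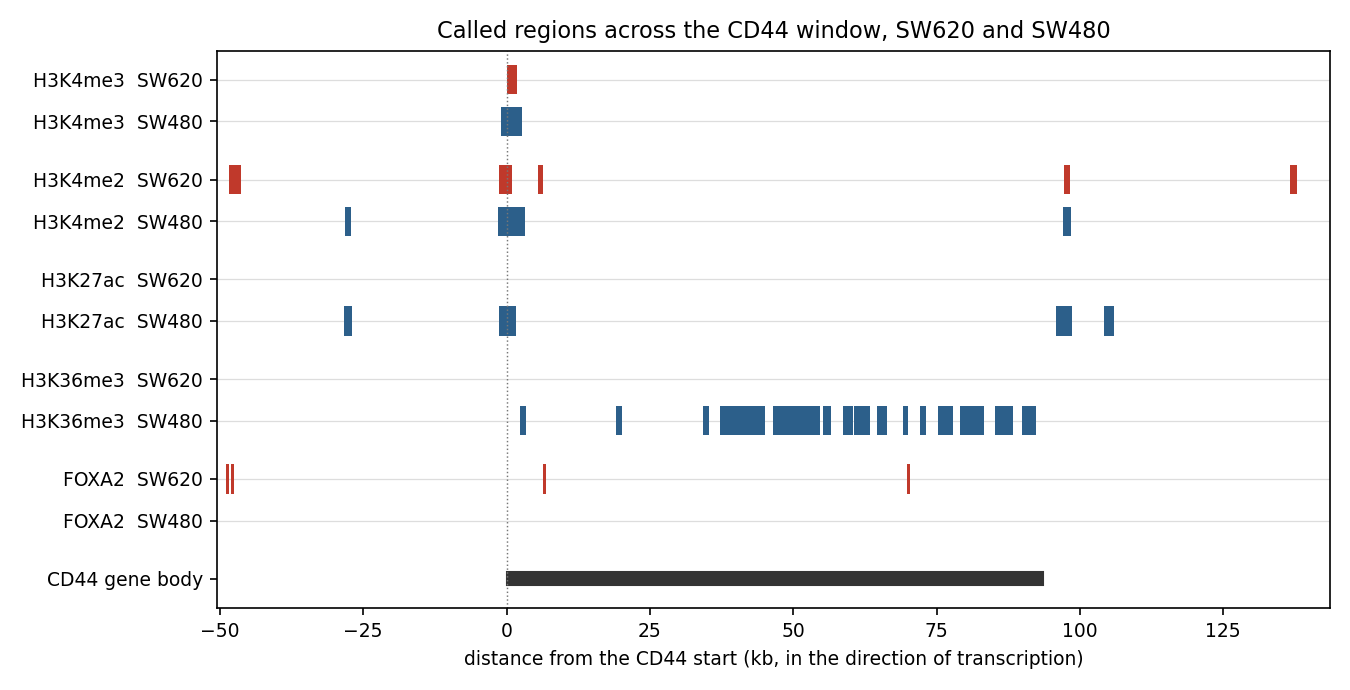
Regions called in SW620 (red) and SW480 (blue) across the CD44 window, by distance from the CD44 start in kb, with 1 row per antibody and line. Bars are to scale except that FOXA2 peaks are drawn 0.6 kb wide. The H3K27ac and H3K36me3 rows of SW620 and the FOXA2 row of SW480 are empty.

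At the start of the gene, the table of RefSeq promoters holds the following 300 bases for CD44 (GRCh38.p14, plus strand, chr11:35138921-35139220, with 250 bases before and 50 after the RefSeq start). It is shown because both lines had an H3K4me3 region that covered the CD44 start or began within 56 bp of it. The hg19 gene record is 301 bp longer than the RefSeq record of GRCh38, so the starts of the 2 records can differ by that much. Capitals mark a forkhead core (TATTTAC) and 2 GC boxes (GGGCGG, or CCGCCC on the other strand).
CD44 promoter: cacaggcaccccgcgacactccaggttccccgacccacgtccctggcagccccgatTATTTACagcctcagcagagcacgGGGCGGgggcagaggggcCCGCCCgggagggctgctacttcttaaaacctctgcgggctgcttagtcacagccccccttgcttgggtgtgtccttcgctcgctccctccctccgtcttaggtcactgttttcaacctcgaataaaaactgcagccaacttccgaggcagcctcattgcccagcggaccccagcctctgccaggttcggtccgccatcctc

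The 300 bases held 18 CpG dinucleotides, against a median of 14 over the 27305 RefSeq promoters of this length, and 63.3% G and C, against a median of 58.3%. The forkhead core, searched as TGTTTAC or TATTTAC on both strands, was present in 6.05% of all these promoters and the GC box in 44.6%. The core bound by the Wnt effectors TCF and LEF, searched as CTTTGAA or CTTTGAT, was not among these letters and is in 6.98% of promoters. The AP-1 site, searched as TGANTCA, was likewise not among them and is in 7.76%. None of the matches overlapped another, and a match is a description of the letters only. No FOXA2 peak of either line lay at the CD44 start.

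H3K4me3 lay at the CD44 start in both lines, on the narrower stretch in SW620. The SW620 region ran from 35160473 to 35162301 (1829 bp) and began 56 bp inside the gene. The SW480 region ran from 35159487 to 35163059 (3573 bp), began 930 bp upstream of the gene and held the whole SW620 region. The SW620 width was 0.512 of the SW480 width. Over the 14911 H3K4me3 regions that paired one to one between the lines, the median of this ratio was 0.976 (quartiles 0.830 and 1.07), and 6.65% of pairs were narrower in SW620 by more than 1.5-fold. Within its own list, the SW620 region was wider than 38.9% of H3K4me3 regions and the SW480 region wider than 90.5%. The SW620 H3K4me3 library had 12791745 tags with 52.0% in regions, and that of SW480 had 16400013 tags with 73.0% in regions. The part of this in the width was not tested.

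H3K4me2 at the start had the same order. The SW620 region ran from 35159129 to 35161397 (2269 bp) and the SW480 region from 35158941 to 35163573 (4633 bp), a ratio of 0.490. The median ratio over 22666 one-to-one pairs of H3K4me2 regions was 1.00 (quartiles 0.878 and 1.17), with 6.29% of pairs narrower in SW620 by more than 1.5-fold. The upstream edges lay close together, 1288 bp before the gene start in SW620 and 1476 bp in SW480. The downstream edges were further apart, 980 bp inside the gene in SW620 and 3156 bp in SW480. The H3K4me2 libraries were of similar depth, with 23671100 tags and 50.7% in regions in SW620 and 20958795 tags and 45.8% in SW480.

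**Figure D2:**
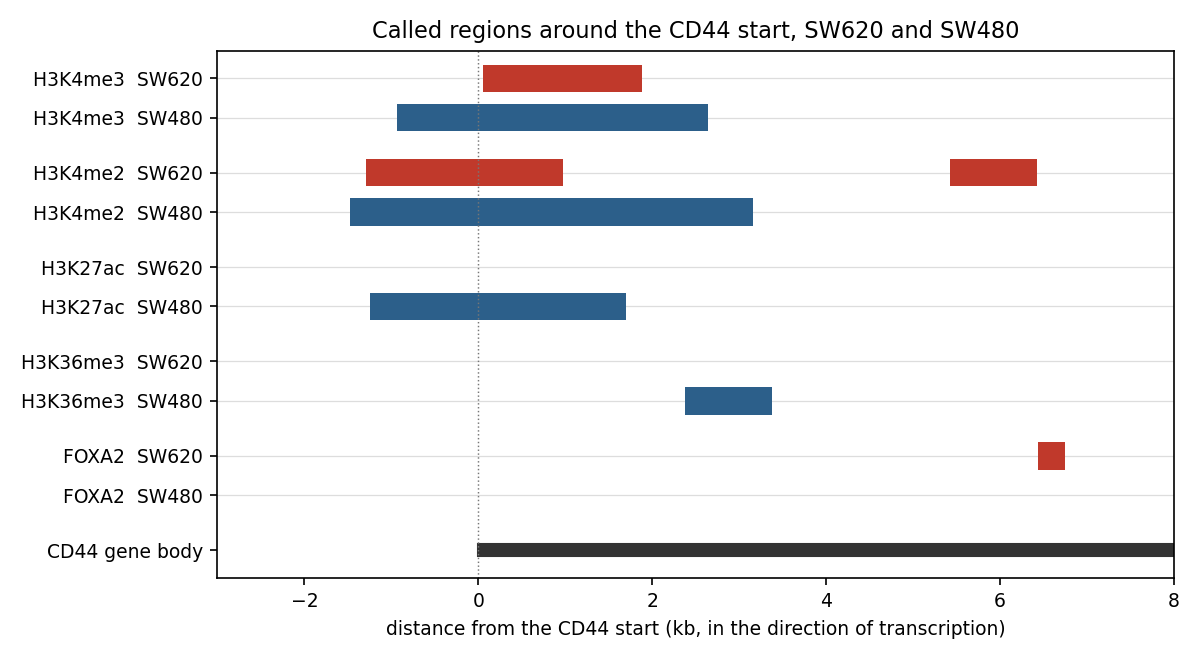
Regions called in SW620 (red) and SW480 (blue) around the CD44 start, by distance in kb, to scale. At the start, the H3K4me3 and H3K4me2 regions of SW620 lie within those of SW480, the H3K27ac region is present in SW480 alone, and a FOXA2 peak of SW620 lies beside an H3K4me2 region of SW620 inside the gene.

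H3K27ac was called at the CD44 promoter in SW480 alone. The SW480 region ran from 35159174 to 35162118 (2945 bp), and 1646 bp of it lay on H3K4me3 of SW620, where no acetylated region was called. Of the 15171 SW480 H3K4me3 regions that overlapped H3K4me3 of SW620, 12.1% (95% Wilson interval 11.6 to 12.6) carried H3K27ac in SW480 alone, as at CD44. Another 1.44% (1.27 to 1.65) carried it in SW620 alone, 82.3% (81.6 to 82.9) in both lines and 4.23% (3.92 to 4.56) in neither. Only counting error enters these intervals, and regions that lie close together are not independent draws.

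The other 3 acetylated regions of SW480 flanked the gene. The first, from 35132142 to 35133392, ended 27.03 kb upstream of the CD44 start and held an H3K4me2 region of SW480 (35132266 to 35133266) that had no counterpart in SW620. That H3K4me2 region had 1001 bp, the smallest width in its list. The second, from 35256223 to 35259049, began 2.27 kb past the CD44 end. Beneath it H3K4me2 was called in both lines, from 35257625 to 35258625 in SW620 and from 35257413 to 35258929 in SW480. The third, from 35264637 to 35266425, began 10.7 kb past the end and had no H3K4me2 region in either line. Acetylation in SW480 thus lay on H3K4me2 of SW620 at 2 of its 4 places, the start and the first place past the end.

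The nearest H3K27ac regions of SW620 lay outside the window, 128 kb upstream of the CD44 start and 140 kb past its end. The SW620 H3K27ac library had more tags than that of SW480, 47867295 against 34224728, but a lower share in regions, 27.5% against 58.5%. The caller's tag threshold for the false discovery rate was 48 tags per 1000 bp in SW620 and 36 in SW480, per the file headers. These are raw counts, not scaled to depth, and the deeper library had the higher one. A stretch below the caller's thresholds is missing from a list, and how much signal SW620 had at these 4 places was not tested.

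H3K36me3 over CD44 was called in SW480 alone and lay mostly in the downstream part of the gene. No bp of the 93.5 kb gene body was covered in SW620, and 43.3% was covered in SW480. All 15 SW480 regions lay inside the gene, and the flanks of 50.4 kb upstream and 50.1 kb downstream held none in either line. The widest were a region of 8195 bp from 35206911 to 35215105 and one of 7697 bp from 35197725 to 35205421, which were wider than 94.9% and 94.2% of the SW480 list. Their starts lay 46.5 and 37.3 kb inside the gene.

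Before them lay 3 regions at the caller's smallest width of 1001 bp. They ran from 35162791 to 35163791, from 35179478 to 35180478 and from 35194716 to 35195716. The first overlapped the end of the SW480 H3K4me3 region by 269 bp, and a gap of 15.7 kb separated it from the next. The 10 regions in the rest of the gene were closer together. Of these, 5 lay in a row from 35215625 to 35216983, 35219154 to 35220866, 35221078 to 35223730, 35225086 to 35226698 and 35229484 to 35230484. The remaining 5 ran from 35232563 to 35233563, 35235728 to 35238232, 35239551 to 35243655, 35245533 to 35248681 and 35250239 to 35252705. The last one ended 1244 bp before the end of CD44.

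Along 10 equal parts of the gene body, SW620 had 0% in each. In SW480 the first 4 parts had 10.7%, 0%, 10.7% and 11.8% of their length covered. The fifth and the sixth had 84.1% and 94.5%, and the last 4 had 60.1%, 30.1%, 70.7% and 60.0%. The step between sparse and dense cover in SW480 therefore lay near 37.4 kb from the start.

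**Figure D3:**
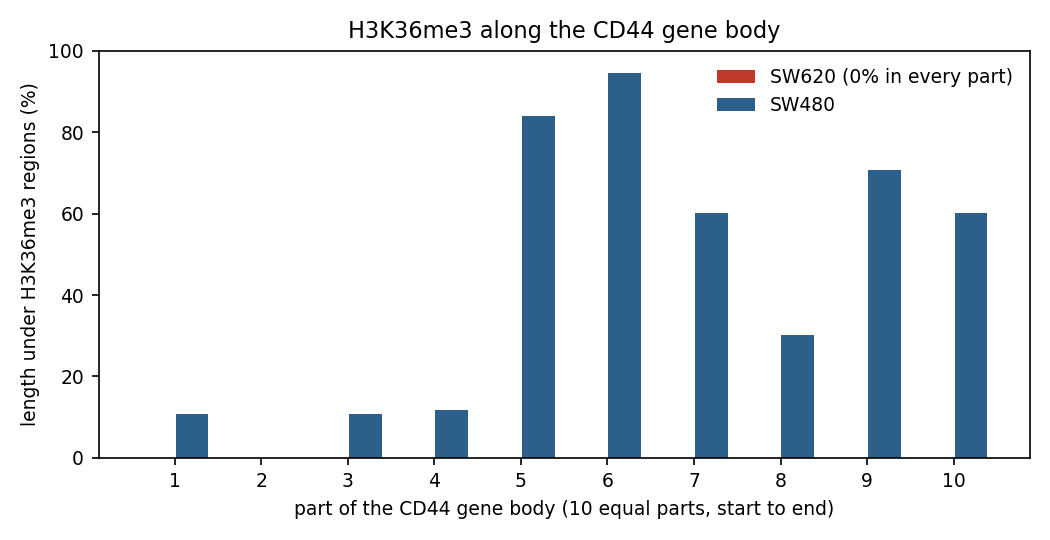
Share of each of 10 equal parts of the CD44 gene body under H3K36me3 regions (%), from start to end of the gene, in SW620 (red, 0% in every part) and SW480 (blue). In SW480 the first 4 parts reach at most 11.8% and the sixth reaches 94.5%.

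The SW620 H3K36me3 library had 46006580 tags with 35.2% in regions, and that of SW480 had 37446361 tags with 32.8%. The caller's tag threshold, a raw count not scaled to depth, was 46 tags per 1000 bp in SW620 and 38 in SW480. How much H3K36me3 signal SW620 had below it over CD44 was not tested. On either side of the window the nearest H3K36me3 regions were called in both lines at nearly the same places. Upstream they lay at 35015029 to 35016029 in SW620 and 35014643 to 35016385 in SW480, each 144 kb before the CD44 start. Downstream they lay at 35707013 to 35710051 in SW620 and 35706611 to 35710493 in SW480, each 453 kb past its end. In the gene order of RefSeq, PDHX, a component of the pyruvate dehydrogenase complex, precedes CD44, and SLC1A2, a glutamate transporter, follows it. PAMR1 and FJX1 come after SLC1A2. No hg19 positions of these genes were available, so the nearest H3K36me3 regions were not assigned to a gene.

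FOXA2 peaks were called in SW620 alone, at 4 places of which none was the promoter. A pair lay upstream, from 35111638 to 35111956 and from 35112483 to 35112801, with near edges 48.5 and 47.6 kb before the CD44 start. The second of the pair lay inside an H3K4me2 region of SW620 (35112041 to 35114105), and the first lay 84 bp outside it. This H3K4me2 region had no counterpart in SW480.

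The third peak, from 35166851 to 35167169, lay 6.43 kb inside the gene. It was 5 bp from an H3K4me2 region of SW620 (35165845 to 35166845), which was also absent from the SW480 list. That region had 1001 bp, the smallest width in its list. The fourth peak, from 35230395 to 35230713, lay 70.0 kb inside the gene and 26.9 kb from the nearest H3K4me2 region of SW620. It overlapped by 90 bp an H3K36me3 region of SW480. The nearest H3K27ac region of SW620 was between 79.1 and 164 kb from the 4 peaks. The remaining H3K4me2 region of SW620 alone, from 35297003 to 35298257, began 43.1 kb past the CD44 end and held no FOXA2 peak.

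The FOXA2 libraries differed in how much of them lay in peaks. The SW620 library had 2.25% of 18036456 tags in 12372 peaks, and the SW480 library had 0.590% of 19473583 tags in 5207 peaks. Peak widths, set by the caller for each library, were 319 bp in SW620 and 127 bp in SW480. Their part in the counts at CD44 was not tested. At least 4 peaks in SW620 with none in SW480 were found in 5.31% of the 8632 windows with a peak in either line.

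The covered lengths at CD44 were compared with those of all windows. Ratios were taken after adding 1 kb to the length in either line. For H3K4me3 the log2 ratio of SW620 to SW480 was -0.69 at CD44, against a median of -0.12 over 7923 windows, of which 12.6% were lower in SW620 by more than 2-fold. CD44 was not among these. For H3K4me2 it was 0.08, against a median of 0.05 over 10331 windows, of which 14.2% were higher and 10.7% lower in SW620 by more than 2-fold.

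For H3K27ac and H3K36me3, which had no region in SW620 at CD44, windows with as much of the mark in SW480 were counted. Of the 2364 windows with at least the 8.81 kb of H3K27ac of the CD44 window in SW480, 55 had none in SW620, or 2.33%. Of 1300 windows with at least the 40.5 kb of H3K36me3 of the CD44 window in SW480, 17 had none in SW620, or 1.31%. In windows of the length of the gene body, 854 had at least the CD44 length of H3K36me3 in SW480, and 2.81% of these had none in SW620. In the other direction, of 749 windows with that much in SW620, 0.801% had none in SW480.

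**Figure D4:**
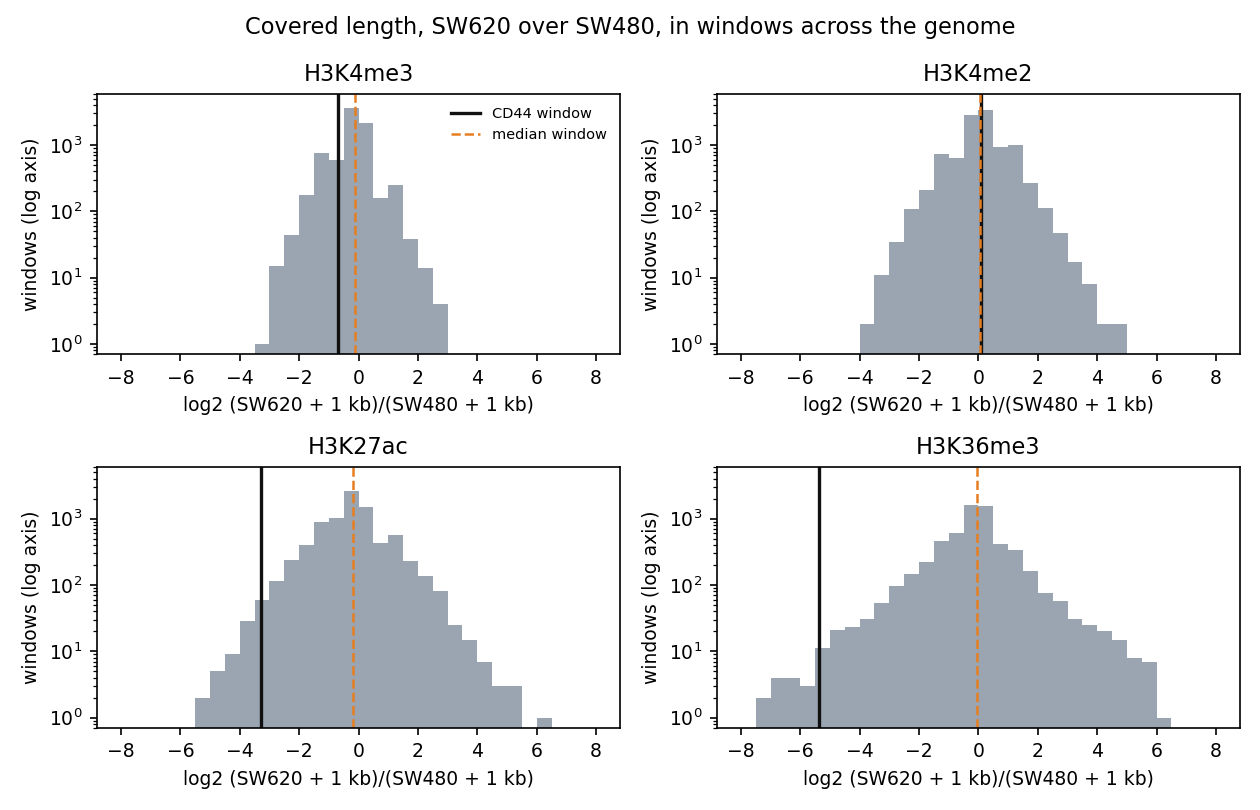
Number of windows (log axis) by the log2 ratio of covered length in SW620 over SW480, with 1 kb added to either, for each histone mark. The CD44 window (black line) lies near the median window (dashed orange line) for H3K4me2, at -0.69 for H3K4me3, and in the left tail for H3K27ac and H3K36me3, where SW620 has no region and the position depends on the added 1 kb.

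The marks were also read together. Of 6777 windows with H3K4me3 in both lines, 6.27% had H3K27ac in SW480 and none in SW620. Both H3K27ac and H3K36me3 in SW480 and neither in SW620 were found in 45 windows, or 0.664%, and the CD44 window was one of them. The opposite, both in SW620 and neither in SW480, was found in 16, or 0.236%. Of the 45, 18 also had a FOXA2 peak in SW620 and none in SW480, as at CD44, or 0.266% of the 6777. This FOXA2 state was found in 51.8% of the 8632 windows with a peak in either line. Its share among the 6777 was not computed, so no link between FOXA2 and the other marks is read from this count.

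The 5 windows most like CD44 were those at the smallest distance over the log2 ratios of the 4 histone marks, among 5377 windows with a region of each mark in either line. The nearest lay on chromosome 17 from 15127897 to 15321897. It had no H3K36me3 region in SW620 and 26.8 kb in SW480, and no H3K27ac region in SW620 and 8.45 kb in SW480. Its H3K4me3 covered 3.09 kb in SW620 and 5.72 kb in SW480, and neither line had a FOXA2 peak there.

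The next were on chromosome 3 from 111546394 to 111740394, chromosome 1 from 68478172 to 68672172, chromosome 10 from 116202418 to 116396418 and chromosome 16 from 84386254 to 84580254. Their H3K36me3 covered 1.44, 0, 0 and 0 kb in SW620, against 72.7, 36.1, 64.1 and 22.8 kb in SW480. Their H3K27ac covered 2.017, 0, 1.761 and 1.775 kb in SW620, against 19.7, 3.34, 30.4 and 17.8 kb in SW480. All but the window on chromosome 1 thus had called acetylation in SW620, unlike CD44. The windows were chosen by these ratios, so lower values in SW620 are built in. SW620 FOXA2 peaks numbered 1, 1, 2 and 0 in them, with none in SW480. The log2 ratios of H3K4me2 in the 5 windows lay between -1.03 and -0.31. At CD44 the value was 0.08 over the window and -0.48 over the gene body, so no direction is read from it there.

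The neighbourhood of CD44 was mixed. Over the 8 windows on either side, H3K36me3 covered 184 kb in SW620 and 287 kb in SW480, and was higher in SW620 in 3 windows and in SW480 in 10. H3K27ac covered 100.1 kb in SW620 and 129 kb in SW480, and was higher in SW620 in 3 windows and in SW480 in 11. The 3 windows with more H3K27ac in SW620 were those just upstream of CD44. From the farthest to the nearest, they had 40.7, 15.2 and 9.59 kb in SW620 against 19.6, 0 and 3.28 kb in SW480. The same 3 windows held 7, 3 and 4 FOXA2 peaks in SW620 and 1, 0 and 0 in SW480. Counted from CD44, upstream windows 8, 7, 5 and 4 had 1, 1, 2 and 1 FOXA2 peaks in SW620. Downstream windows 2 and 4 had 1 each in SW620. None of these windows had a FOXA2 peak in SW480, and all had more H3K27ac in SW480. Downstream window 1 had 2 FOXA2 peaks in each line and also more H3K27ac in SW480.

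Past the end of CD44, no H3K36me3 region was called in either line over the next 2 windows. In the first window after CD44, H3K27ac covered 1.29 kb in SW620 and 5.53 kb in SW480. In the sixth, H3K36me3 covered 4.95 kb in SW620 and 59.1 kb in SW480, the largest difference of the 16 windows for this mark. The upstream window that borders CD44 had 20.3 kb of H3K36me3 in SW620 and 27.3 kb in SW480.

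**Figure D5:**
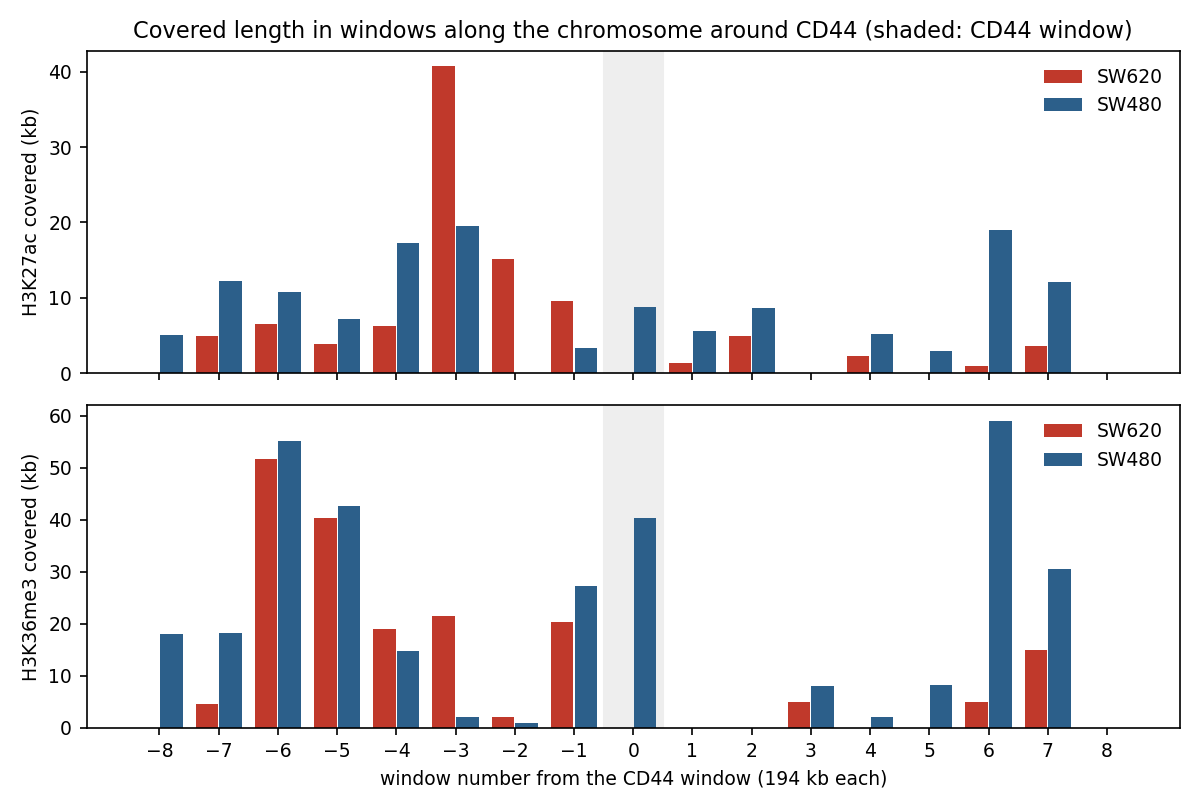
Covered length (kb) of H3K27ac and H3K36me3 in SW620 (red) and SW480 (blue) in the CD44 window (shaded, number 0) and the 8 windows of 194 kb on either side. At CD44 both marks are at 0 in SW620, while H3K27ac in the 3 windows just upstream is higher in SW620.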

How the data were processed

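ChIP-seq regions were analysed as the authors deposited them, in 10 lists with 1 library each, from 12 samples grouped by title. The 2 input samples were used by the authors' caller alone. Per the file headers, the authors ran HOMER findPeaks on each library with its line's input as control: histone style, 1000 bp, 4-fold over input and over local background for the histone marks, factor style and 2-fold for FOXA2, at a false discovery rate of 0.001. Coordinates are hg19, per the submitters' processing notes. No aligner or HOMER version is given in the sources used here. The deposited score was 1 in every row, so regions were compared by position (start and end, other deposited values). Depth, from 12791745 to 47867295 tags, came from the headers.

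Covered length is the union of regions within a stretch, computed with numpy 2.4.6, pandas 2.3.3 and scipy 1.17.1 in Python 3.11.15, and tested on simulated regions. Figures used matplotlib 3.10.9. Regions were named if they lay at the CD44 start, were called in one line alone or were FOXA2 peaks; similar windows were the 5 nearest by Euclidean distance. The window, comparisons and lists were chosen with earlier results of these data known. Other CD44 pathway genes were not analysed here, since they have no hg19 coordinates here; RefSeq tables on GRCh38 gave the gene order and the promoter. Alternatives changed the stretch, the added length, list length, region width, gaps, the grid and the fold.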

Additional observations from a re-analysis of the deposited data

How the results depend on the processing

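Of 61 alternatives, 45 moved a value by less than 1.5-fold or within its interval, 11 moved it further and 5 turned its sign. The 5 all concerned H3K4me2, whose log2 ratio of SW620 to SW480 was 0.08: it was -0.48 in the gene body, -0.44 with 10 kb on either side, -0.31 with equal numbers of the widest regions, -0.079 with regions of at least 2 kb and -0.030 relative to the whole lists, an alternative chosen after the data were seen, so no direction is read from it. H3K4me3 (-0.69) was -2.19 with regions of at least 2 kb, which drop the SW620 region, and 0 by number of regions. For H3K27ac and H3K36me3, at 0 in SW620, the ratio is set by the added length and is no fold. H3K27ac (-3.29) was -1.43 in the gene body, -6.48 with 100 bp added, -1.47 with 5 kb added and -2.32 by number of regions. H3K36me3 (-5.37) was -8.66, -3.18 and -4.00 under the last 3 of these. With gaps of up to 5 kb closed, the SW620 minus SW480 share of the gene body under H3K36me3 was -64.1 percentage points in place of -43.3. For shares of length, the interval was a 95% Wilson interval over bins of 1 kb, 34.0 to 53.7% for the gene body. Neighbouring bins of 1 library are not independent draws, so it serves only as a yardstick. FOXA2 peaks in SW620 exceeded those in SW480 by 2 in the gene body in place of 4, and by 3 with equal numbers of first-listed peaks. Counts of windows past 2-fold stayed within 1.5 times under each alternative run.

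No paired analysis was possible because each group has 1 library, and leave-one-out values do not exist for the same reason. A list omits what falls below the caller's minimum, so an absent region is not an absence of the mark. For H3K27ac and H3K36me3, with no region in SW620, the SW620 library had more tags than that of SW480. For FOXA2, with no peak in SW480, the SW480 library had more tags. The part of depth in the absent calls was not tested.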

Other observations

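The upstream FOXA2 pair and the H3K4me2 region that holds one of them lay at the edge of the window, and the SW620 list had further FOXA2 peaks beyond it, the nearest from 35083118 to 35083436, 77.0 kb before the CD44 start. The nearest SW480 FOXA2 peak on that side was 604 kb before the start. Past the CD44 end the nearest peaks were 87.1 kb away in SW620 and 79.4 kb away in SW480.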
